A study of Mus musculus with 69 samples.

Results

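F1 hybrid macrophages of the cross C57 × NOD carry 1 C57BL/6J (C57) and 1 NOD/ShiLtJ (NOD) copy of every autosomal gene in the same nucleus, so that both alleles meet the same transcription factors and the same interleukin-4 (IL-4). The genes described here are those whose 2 alleles could be compared after 24 hours of IL-4. They were chosen by level alone, as genes with a mean of at least 20 over the C57 and NOD allele columns of both IL-4 libraries. This rule took 2767 of the 24527 genes listed, of which 5238 were above 0 in an IL-4 allele column. The members nearest to the limit were Ska1, at a mean of 20.01, and Tlr13, at 20.03, and the nearest genes left out were Vps11, at 19.99, and Sgsm2, at 19.99. In the basal libraries, described below, 2912 genes reached this level, and 2563 of them were members.

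The F1 samples were 4 polyA RNA-seq libraries of bone marrow-derived macrophages (BMDMs), which are bone marrow cells grown into macrophages in culture with the growth factor M-CSF. In 2 libraries the cells had received 20 ng/ml of mouse recombinant IL-4 for 24 hours, and in 2 they were untreated (basal). No gene was deleted and no other agent was given in either group. The parental C57 and NOD strains were represented by 3 basal and 3 IL-4 libraries each, with 7.02 to 18.3 M tags a library. Libraries of the strains BALB, PWK and SPRET, also basal and with IL-4, entered the parental fit through the estimate of the spread and the choice of genes tested. The study used healthy female mice of 8 to 12 weeks, but which parent of the cross was the mother is not given in the sources used here, and the methods call the libraries biological replicates without saying whether these were separate animals or cultures, so the p-values measure the spread between libraries.

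IL-4 binds a receptor that signals through the factor STAT6 and drives macrophages into the alternative activation state, with arginine metabolism, uptake receptors and tissue repair genes among its known targets. Where 2 strains differ in the level of a gene, the difference can lie in DNA next to the gene, which acts on its own copy alone (cis), or in factors that act on both copies (trans). In an F1 cell a cis difference stays between the alleles, while a trans difference reaches both. The comparison of alleles within the F1 libraries, set beside the comparison of the parents, addresses this distinction gene by gene.

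Only reads that overlap a variant between the strains can be given to an allele, so an allele value depends on where a gene holds variants as well as on its expression. Values of different genes are therefore not compared as expression levels, sums and ranks of values describe the allele columns alone, and a gene listed at 0 need not be silent. Of 3462 genes with a mean of at least 20 TPM in the C57 and NOD IL-4 libraries, 1260 (36.4%) were members and 2000 had no allele value in either IL-4 library. The share differed between chromosomes, from 9.52% on the X chromosome and 14.6% on chromosome 10 to 59.1% on chromosome 17. Of the 10 macrophage markers, 5 were above 0 in an IL-4 allele column, among them Csf1r, Fcgr1, Mertk and Cd14. Adgre1, Cd68, Itgam, Lyz2 and Aif1 were listed at 0 in all 8 allele columns, although Lyz2, for example, lay between 12560 and 14086 TPM in the parental IL-4 libraries. The summed macrophage markers lay between 1275 and 1431 in the IL-4 allele columns and between 1630 and 1833 in the basal ones. Markers of T and NK cells, erythroid cells and fibroblasts were at 0 in the IL-4 columns, those of dendritic cells reached 2.22, those of B cells 23.5 to 51.4 through Cd22 alone, and those of mast cells and basophils 0 to 78.2. Neutrophil markers reached 73.1 to 223 through Mpo and S100a8, and Mpo lay between 0 and 0.159 TPM in the parental IL-4 libraries. The part of other cells in the allele ratios was not tested.

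Each deposited value, multiplied by the length of its gene, was a whole multiple of 1 number per column, for 100% of the values within a tolerance of 0.05. These multiples are used here as reads given to an allele, and the intervals below assume that 1 multiple is 1 read. The study's methods, given for another cross, scale counts by a ratio of variant reads and a factor of 10, so this is not certain, and the intervals would then have another width. The IL-4 libraries held 154976 and 178000 reads on C57 alleles and 150435 and 173050 on NOD alleles, and the basal libraries 351171 and 179534 on C57 and 339397 and 174177 on NOD. A member had a median of 89 reads over both alleles and both IL-4 libraries, with 46 and 193 as the lower and upper quartile, and 1971 members had at least 20 reads in each IL-4 library. The intervals given for a share of reads are exact binomial (Clopper-Pearson) 95% intervals, and they cover counting error only. Each allele column was scaled to its own total, so that equal read counts on both alleles read as a log2 ratio of -0.07 in IL-4 library 1 and -0.05 in IL-4 library 2. The median log2 ratio of C57 over NOD was -0.07 and -0.05 in these libraries.

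For 69 members the C57 and NOD read counts were equal in each of the 4 libraries, and for 107 in both IL-4 libraries. Independent counting at an equal split would give 2.37 and 23.7 such members. Among the 69, the largest had 620 reads over the IL-4 libraries and 30 had at least 20 reads in each. Sdcbp, an adaptor of vesicle traffic, had 156 reads on each allele in IL-4 library 1, and Hsp90b1, a chaperone of the endoplasmic reticulum, had 70 on each. Such genes carry no measured difference between alleles, and how far reads counted on both alleles reach into other genes was not tested.

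Most alleles were close to equal. Of the 1971 members with at least 20 reads in each IL-4 library, 1562 (79.2%) lay within 1.5-fold of an equal ratio, and 153 were more than 2-fold apart. The spread between the IL-4 libraries was smaller in genes with more reads. The SD of the difference in log2 ratio between the libraries was 2.41 over the 749 members with fewer than 50 reads, 1.14 over the 730 with 50 to 100, 0.72 over the 615 with 100 to 200 and 0.29 over the 224 with 500 or more. Pearson's r across genes, which share library and scaling, was 0.44, 0.42, 0.79 and 0.95 in these 4 classes.

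**Figure D1:**
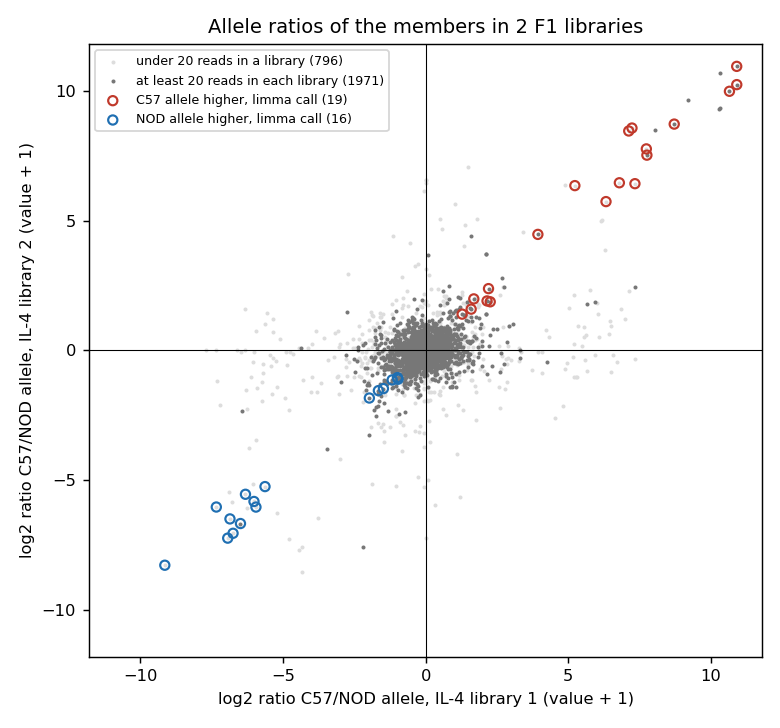
Log2 ratio of the C57 over the NOD allele of the 2767 members in IL-4 library 1 (x axis) and IL-4 library 2 (y axis), both from values with 1 added. Light points had under 20 reads in a library, dark points at least 20 in each, and circles mark the 19 genes called higher on C57 and the 16 called higher on NOD. The genes at the far corners are those with no reads on 1 allele, and most dark points lie near 0.

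An allele difference was called where limma gave an adjusted p under 0.05 over all members and the ratio was over 2-fold. This test called 35 of 2767 members (1.26%), of which 19 (0.687%) were higher on the C57 allele and 16 (0.578%) on the NOD allele. Of these 35, 22 had no reads on 1 allele in either IL-4 library and 13 had reads on both alleles throughout. The methods describe a filter against transcripts with no reads on 1 allele, but such genes are present in the table used here. For 3 of the 22, reads were missing on both alleles in basal libraries, in both of them for Romo1 and Ang2 and in 1 for Batf3. The ratio of such a library entered the fit as 0, and these calls carry no weight. The call of Rpl35a, a ribosomal protein gene, also rested on few reads, 2 and 5 on C57 in the IL-4 libraries. The same test called 24 members (0.867%) in the basal libraries. The calls depended on the 4 libraries together, since 4 remained without IL-4 library 1 and 0 without IL-4 library 2 or without either basal library.

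Counting error gave a wider set. In 123 members (4.45%) the interval of the C57 read share lay on the same side of 50% in both IL-4 libraries and the ratio was over 2-fold, with C57 higher in 70 (2.53%) and NOD higher in 53 (1.92%). This rule has no replicate test, but the basal libraries, which it did not use, allow a comparison. Of the 70 genes higher on C57, 49 also had their interval above 50% in both basal libraries and 0 had it below in either. Of the 53 higher on NOD, 27 had it below 50% in both basal libraries and 2 had it above in a basal library. The share over all members is not given, so these basal counts lack a background. The limma calls overlapped with this set in 17 of 19 genes higher on C57 and 14 of 16 higher on NOD.

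The MHC class I region of chromosome 17 held 2 of the 7 C57 calls with reads on both alleles. H2-K1 (chr17:33996012-34000333, minus strand, mm10) encodes a classical class I molecule that presents peptides to CD8 T cells. Its C57 allele lay at 5812 and 5771 and its NOD allele at 2394 and 2191 in the IL-4 libraries, so that the alleles did not overlap. The C57 share of its reads was 71.8% (69.4 to 74.1, of 1503 reads) and 73.2% (71.0 to 75.3, of 1662 reads). The log2 ratio was 1.34 ± 0.08 (SE, n = 2 libraries), 2.53-fold, with a limma adjusted p of 0.0272. H2-T23 (chr17:36029977-36032701, minus strand), the nonclassical class I molecule Qa-1 that binds receptors of NK cells, lay at 1792 and 1340 on C57 and at 402 and 357 on NOD. Its log2 ratio was 2.03 ± 0.09, 4.08-fold, with a limma adjusted p of 0.019.

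These 2 genes did not differ over 2-fold between the parental strains. H2-K1 was at 2730 ± 64.1 TPM in C57 and 2552 ± 105 TPM in NOD BMDMs after IL-4 (SD, n = 3 each), and H2-T23 at 324 ± 8.49 and 298 ± 8.78 TPM. The F1 ratio therefore exceeded the parental one by more than 1 log2 unit in both. Class I genes are a family of similar sequence, and H2-T22 and H2-T9 had the same read counts in both IL-4 libraries, 28 and 30 on C57 and 6 and 2 on NOD, and the levels of such genes are uncertain. In the class I and peptide loading list, 17 of 27 genes were members, 2 were called higher on C57 and 0 on NOD, and the median log2 ratio was 0.22, against -0.05 over all members. The members ranged from -2.80 to 2.92, and in the parents 1 of the 17 was called higher in C57 and 4 in NOD, with a median of -0.21. Calr and Pdia3, chaperones that assist class I folding, had log2 ratios of 0.36 and 0.33. Tapbp, the tapasin of the loading complex, had 0.04 and B2m, the class I light chain, 0.22. The peptide transporter Tap2 and the immunoproteasome subunit Psmb8 had -0.28 and -0.42. H2-T10, a nonclassical class I gene, met the read rule with NOD higher, on 1 and 4 reads on C57 and 10 and 13 on NOD.

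Of the 12 MHC class II genes, 6 were members and 0 were called, and all 6 lay within 1 log2 unit of their parental ratio. H2-DMb1, part of the peptide exchange factor of class II, had C57 read shares of 72.1% (59.9 to 82.3) and 65.3% (55.2 to 74.5), but missed the test at a limma adjusted p of 0.129. The class II chains H2-Aa and H2-Ab1 had log2 ratios of -0.13 and 0.16, and the invariant chain Cd74 had -0.04.

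Of the 3 C1q genes of complement, whose products recognise immune complexes and dying cells, C1qb was called higher on the C57 allele. C1qb (chr4:136880145-136886177, minus strand) lay at 1734 and 1629 on C57 and at 376 and 312 on NOD. Its log2 ratio was 2.29 ± 0.11, 4.89-fold, with a limma adjusted p of 0.0199, and the ratio was 1.99 in the basal libraries. Its neighbour C1qc had C57 read shares of 70.5% and 80.8% and a log2 ratio of 1.60 that missed the test (limma adjusted p = 0.145), while C1qa, with 9 and 28 reads, had 1.08. In the parents the C57 excess was larger for each of the 3 genes, at log2 differences of 4.51, 2.85 and 3.39 for C1qb, C1qc and C1qa. C1qb, for example, was at 2091 ± 89.4 TPM in C57 and 90.7 ± 2.22 TPM in NOD. In the complement list of 21 genes, 5 were members, with a median log2 ratio of 1.08.

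Ctsk (chr3:95499210-95509387, plus strand), the collagen-degrading cathepsin K, was also called higher on C57. Its C57 allele was at 1653 and 1958 and its NOD allele at 546 and 650.5 after IL-4, a log2 ratio of 1.59 ± 0.06 (limma adjusted p = 0.0172), and 1.70 in the basal libraries. The parental difference was 6.20, with 435 ± 14.8 TPM in C57 and 4.92 ± 0.38 TPM in NOD. Ctss, cathepsin S of antigen processing and the neighbour of Ctsk on chromosome 3, had C57 read shares of 65.9% (64.2 to 67.6, of 3099 reads) and 60.5% (58.9 to 62.1, of 3653 reads), under the 2-fold limit. Of 47 cathepsin and lysosome genes, 17 were members, 1 was called and the median log2 ratio was -0.06. The proteases Ctsb and Ctsl had log2 ratios of -0.25 and -0.11, and the Ctsb share, 46.8% and 46.7%, had its interval below 50% in both libraries.

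The other C57 calls with reads on both alleles were Pdpn, Il11ra1 and Rpl21. Pdpn encodes podoplanin, a surface mucin, and was at 177 and 299 on C57 and at 36.1 and 80.9 on NOD, a log2 ratio of 2.07 ± 0.16. Il11ra1 encodes the receptor chain for interleukin-11 and was at 343 and 404 on C57 and at 106 and 101 on NOD, a log2 ratio of 1.84 ± 0.13, beside a parental difference of 2.52. Rpl21, a ribosomal protein gene, had 19 and 28 reads on C57 and 1 and 1 on NOD. In the parents its order was the reverse, with 18.6 ± 1.97 TPM in C57 and 38.8 ± 2.72 TPM in NOD.

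Slc7a2 was the 1 alternative activation gene with reads on both alleles that was called. It encodes a cationic amino acid transporter that carries arginine into the cell, and it lies at chr8:40862367-40922070, plus strand. The NOD allele was at 2234 and 2315 and the C57 allele at 992 and 1052, with C57 read shares of 31.7% (30.0 to 33.5, of 2731 reads) and 32.1% (30.5 to 33.7, of 3259 reads). The log2 ratio was -1.15 ± 0.09, 2.22-fold higher on NOD, with a limma adjusted p of 0.0419. In the basal libraries the same order held at lower levels, with 129 and 142 on C57 against 312 and 408 on NOD. Both alleles rose with IL-4, 7.51-fold on C57 and 6.36-fold on NOD, as values with no test of their own. The parental difference was -2.62 on the log2 scale before IL-4 and -0.06 after it. Slc7a2 was at 16.4 ± 0.63 TPM in C57 and 106 ± 2.94 TPM in NOD before IL-4, and at 136 ± 12.7 and 141 ± 7.09 TPM after it.

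Arg1, the arginase that turns arginine into ornithine and urea and a defining gene of alternative activation, lies at chr10:24915207-24927470, minus strand. Its C57 allele was at 10993 and 11180 and its NOD allele at 7731 and 7348 after IL-4, so that the alleles did not overlap. The C57 read shares were 59.8% (58.1 to 61.6, of 3058 reads) and 61.2% (59.6 to 62.9, of 3452 reads). The log2 ratio of 0.56 ± 0.10, 1.47-fold, missed the test (limma adjusted p = 0.152). Between the parents the difference was 5.50 ± 0.16, 45.2-fold, with 3411 ± 86.0 TPM in C57 and 74.6 ± 5.54 TPM in NOD. In the basal F1 libraries Arg1 was at 344 and 476 on C57 and at 145 and 160 on NOD, so that both alleles were far above their basal level after IL-4, 27.3-fold on C57 and 49.2-fold on NOD.

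Of the 50 alternative activation genes, 15 were members. By the test, 0 were higher on C57 and 2 on NOD, Slc7a2 and Batf3, the latter without weight as above, and the median log2 ratio was -0.16. In the parents 11 of the 15 were called higher in C57 and 1 in NOD, the median difference was 1.41, and 1 of the 15 lay within 1 log2 unit of its F1 ratio. Itgax, the integrin CD11c, had 260 and 298 reads on C57 and 270 and 313 on NOD, a log2 ratio of -0.12 beside a parental difference of 1.97. Rbp4, a retinol carrier, had -0.47 beside 2.83, and Cdh1, E-cadherin, had -0.16 beside 2.56. Igf1, an insulin-like growth factor, had 0.52 beside 1.45. Clec7a, the beta-glucan receptor Dectin-1, had 8 and 8 reads on C57 and 25 and 25 on NOD, while the parental level was higher in C57. Klf4, a factor of macrophage polarisation, had a log2 ratio of -0.33, with a parental difference of 1.08. Msx3, Egr2 and Btbd11 did not reach the level for membership.

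**Figure D2:**
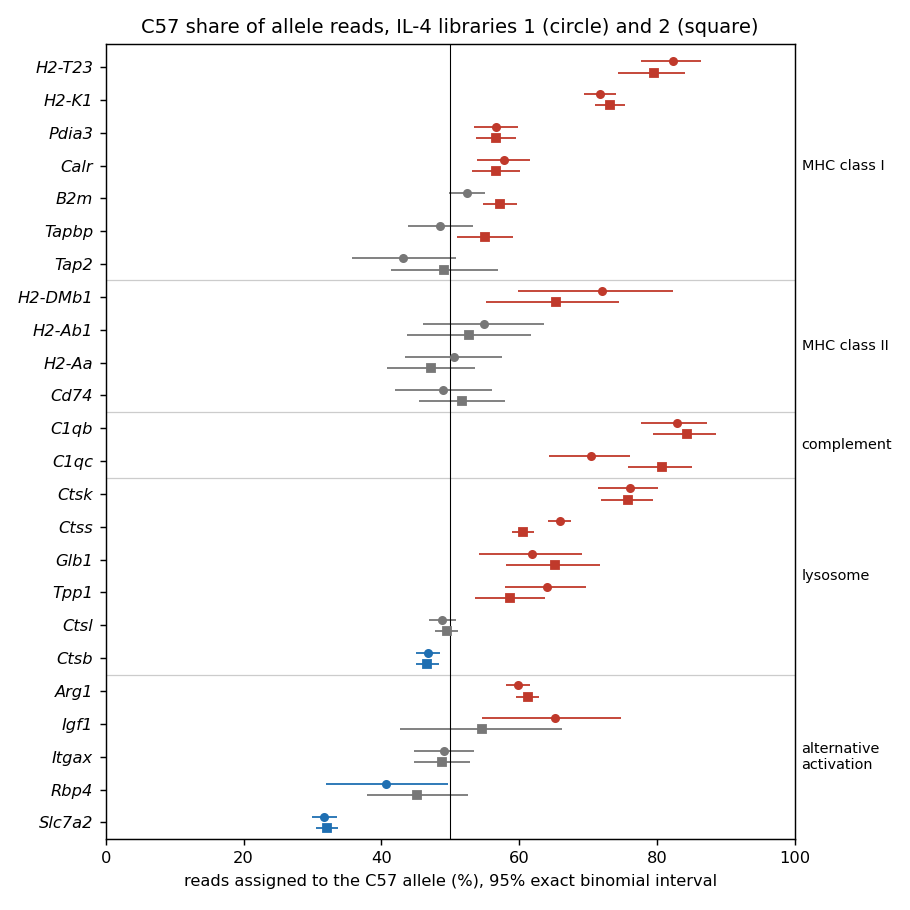
Share of allele reads given to C57 (x axis, percent) for 24 members of 5 gene groups, with exact binomial 95% intervals, in IL-4 library 1 (circles) and IL-4 library 2 (squares). Red marks intervals above 50%, blue below and grey across it. H2-T23, H2-K1, C1qb, Ctsk and C1qc, which was not called, lie above 70% in both libraries, and Slc7a2 lies near 32%.

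On the NOD side, 6 calls had reads on both alleles. After Slc7a2 came Ndufa12, a subunit of respiratory complex I, with 318 and 252 on C57 and 1248 and 900 on NOD, a log2 ratio of -1.90 ± 0.08 (limma adjusted p = 0.0172). Hal encodes histidine ammonia-lyase, which starts the breakdown of histidine, and lies at chr10:93488768-93516761, plus strand. It was at 346 and 352 on C57 and at 1090 and 1033 on NOD, a log2 ratio of -1.60 ± 0.08 (limma adjusted p = 0.0207), and the parents were at 0.47 ± 0.03 TPM in C57 and 28.4 ± 1.23 TPM in NOD. Adamts1, a secreted metalloproteinase of the extracellular matrix, was at 52.5 and 78.0 on C57 and at 148 and 218 on NOD, a log2 ratio of -1.47 ± 0.12, beside a parental difference of -3.96. Retsat, a retinol saturase, and Rps9, a ribosomal protein, had log2 ratios of -1.04 ± 0.08 and -1.02 ± 0.04, near their parental differences of -1.31 and -0.91. In all 6 genes the NOD allele was also the higher in both basal libraries.

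**Figure D3:**
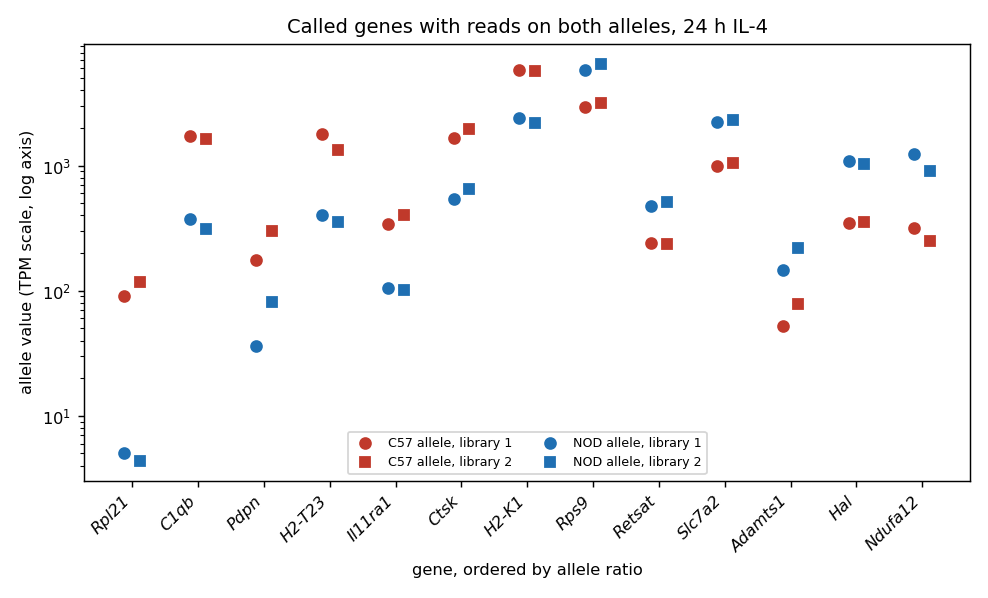
Allele values (y axis, TPM scale, log axis) of the 13 called genes with reads on both alleles, ordered along the x axis by their ratio. Red is the C57 allele and blue the NOD allele, circles are IL-4 library 1 and squares IL-4 library 2. In every gene the 2 points of an allele lie on the same side of the 2 points of the other.

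The other 22 calls had no read on 1 allele in either IL-4 library, 12 on NOD and 10 on C57, and their ratios on the log2 scale rest on the added 1. Hspa8, a constitutive chaperone of the HSP70 family, had 453 and 529 reads on C57 and 0 on NOD. By a floor of 3 reads this allows a NOD share of up to 0.305% of the reads over both libraries, or 327 C57 reads to 1 NOD read. The basal libraries held 991 and 572 reads on C57 and 1 and 3 on NOD. This limit concerns reads given to an allele, and the part of read assignment in it was not tested. In the parents Hspa8 was at 148 ± 11.9 TPM in C57 and 53.4 ± 8.79 TPM in NOD. Rplp0, a ribosomal stalk protein, had 64 and 73 reads on C57 and 0 on NOD, a share of up to 2.19%, while its parental levels were 797 ± 32.1 and 920 ± 23.2 TPM. Ubb, a ubiquitin gene, had 29 and 28 reads on C57 and 0 on NOD, with 279 ± 28.6 and 281 ± 20.0 TPM in the parents. Rpl34 and Rpl34-ps1 had the same 88 and 63 reads, and the parental levels of Rpl34 were 296 ± 16.8 and 5.00 ± 2.10 TPM. Atp5g1, a subunit of ATP synthase, had 41 reads on C57 over both libraries.

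On the other allele, Cox7c, a subunit of cytochrome c oxidase, had 27 and 17 reads on NOD and 0 on C57, with parental levels of 1.09 ± 0.45 TPM in C57 and 20.8 ± 3.16 TPM in NOD. Brox had 33 and 43 reads on NOD and 0 on C57, although the parental levels were 13.5 ± 1.87 and 9.28 ± 0.11 TPM. Ubald2 and Gm7367 shared the same 17 and 24 reads on NOD, and Taf10, a subunit of TFIID, had 13 and 6. Batf3, a factor of the AP-1 family, had 6 and 4 reads on NOD, Ang2 had 3 and 3, and Romo1 had 4 and 3 on C57, with intervals of the C57 share that crossed 50% in both IL-4 libraries for Ang2 and Romo1 and in IL-4 library 2 for Batf3. Among the 22, 20 were tested in the parents, and 8 of these differed by less than 2-fold there.

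A group of 30 members was picked by ribosomal protein gene names, pseudogenes included, and counted after its values were seen. Of these, 8 (26.7%) were at 0 on an allele in both IL-4 libraries, against 42 of the other 2737 members (1.53%). The 8 include the pseudogenes Rps19-ps3 and Rpl34-ps1, and Rpl34-ps1 has the same reads as Rpl34, so they are not 8 separate protein genes. Ribosomal protein genes have near-identical pseudogenes, among which counting can split reads. In all, 10 members had exactly the reads of another listed gene in all 8 columns, among them Rpl34, Ubald2, Atp6v0c and Eno1. The allele levels of these genes are uncertain.

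X-linked members leaned to the C57 allele. In female mice 1 X chromosome is silenced in each cell, so that the share of an X-linked allele in a culture also depends on how many cells keep which X active. Of the 23 X-linked members, 16 had a log2 ratio above 0 in IL-4 library 1 and 16 in IL-4 library 2, and 20 and 19 did in the basal libraries. Their C57 reads made up 63.3% (60.6 to 65.9, of 1297 reads) and 60.1% (57.6 to 62.6, of 1462 reads) in the IL-4 libraries, and 60.7% and 60.5% in the basal ones. The median log2 ratio of the 23 was 0.81 and 0.28 in the IL-4 libraries and 0.94 and 1.12 in the basal ones. On single autosomes the C57 share lay between 47.7% and 54.8% in IL-4 library 1 and between 48.2% and 54.6% in IL-4 library 2. Flna, an actin cross-linker, had 173 and 187 reads on C57 and 82 and 116 on NOD, Diaph2 had 83 and 89 against 41 and 38, and Elf4 had 23 and 27 against 7 and 8. Tmsb4x, thymosin beta 4, had 122 and 128 reads on each allele, and Nbdy and Fam50a also had equal reads in both IL-4 libraries. Such equal counts, described above, carry no measured difference between alleles. The reads of these genes are part of the pooled X shares, and their effect on those shares was not tested. By the test 0 X-linked members were called, and 5 met the read rule, all with C57 higher, namely Sh3kbp1, Elf4, Diaph2, Sash3 and Bex1. The share of cells with each X and the rate per cell cannot be told apart in these bulk libraries.

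**Figure D4:**
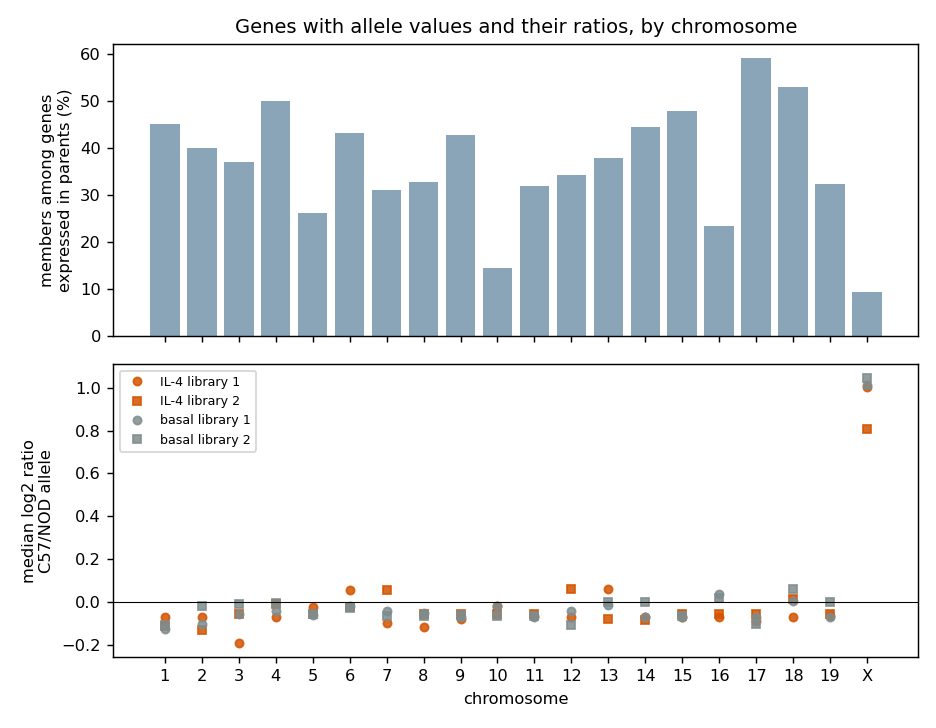
Top, share of the genes with a mean of at least 20 TPM in the parental IL-4 libraries that were members, by chromosome (bars, percent). Bottom, median log2 ratio of C57 over NOD of the members with at least 20 reads in each IL-4 library, for each of the 4 F1 libraries. Autosomal medians over the IL-4 estimates lie between -0.12 and 0.03, and those of the 15 X-linked genes lie between 0.81 and 1.05 in the 4 libraries.

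Among the 5 members of highest value, Lgals3, the lectin galectin-3, had C57 read shares of 51.2% (50.5 to 51.9, of 19757 reads) and 51.0% (50.3 to 51.7, of 22315 reads). Ctsz, cathepsin Z, and Capg, an actin capping protein, had log2 ratios of -0.12 ± 0.05 and 0.00 ± 0.04, and Ctss and Arg1 were the other 2 of the 5 highest.

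Among genes of macrophage identity, 14 of 37 lineage factors were members, 0 were called, and the median log2 ratio was -0.04. Spi1, the master factor PU.1, and Cebpa had -0.02 and -0.06. Of 9 Fc receptor genes, 6 were members and 0 were called. Fcgr3, an activating receptor for IgG, had 704 and 736 reads on C57 and 737 and 704 on NOD, while the parents differed by 2.40, and the inhibitory Fcgr2b had 0.57 beside 1.53. Of 25 scavenger and uptake receptor genes, 6 were members, with a median of 0.09, and Msr1, the class A scavenger receptor, had 146 and 164 reads on C57 and 191 and 307 on NOD. Of 23 genes of IL-4 receptor signalling, 5 were members (Tyk2, Ptpn11, Inpp5d, Cish and Grb2), with a median of 0.15 and 0 calls.

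Few genes of the interferon lists could be followed. Members numbered 2 of 40 interferon-stimulated genes, 5 of 14 Ifi200 genes, 1 of 19 interferon-inducible GTPases and 0 of 8 Schlafen genes, and 0 were called. The list of 23 Toll-like receptors and their partner and signalling genes had 5 members (Tlr8, Tlr13, Cd14, Ticam1 and Irak4). Of 23 C-type lectins and 29 chemokines and receptors, 2 and 5 were members. The medians of these lists, in the same order, were 0.62, -0.70 and -0.03, with 0 calls. The 7 members of the cholesterol and fatty acid list had a median of 0.15, and the 7 of the glycolysis list 0.00, where Eno1 had a C57 log2 ratio of 1.75 on reads identical to those of Eno1b. Of 73 genes of oxidative phosphorylation, 27 were members, with a median of -0.01 and 1 call on C57 (Atp5g1) and 2 on NOD (Ndufa12 and Cox7c). Of 54 imprinted genes, Igf2r and Gnas were members. Igf2r had 3 and 29 reads on C57 and 29 and 67 on NOD, and Gnas had equal reads on both alleles in all 4 libraries.

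Allele ratios after IL-4 were then compared with those of the basal libraries in 1 model. A different ratio after IL-4 was found for 0 of 2767 members (0%) by limma at an adjusted p under 0.05, with a smallest adjusted p of 0.814, and 163 (5.89%) had an unadjusted p under 0.05. The difference for Arg1 was -0.85, from 1.41 in the basal libraries to 0.56 after IL-4 (limma unadjusted p = 0.00632, adjusted p = 0.814). The largest changes by size, of Romo1, Morrbid and Ccdc28b upward and 2810004N23Rik, Ang2 and Batf3 downward, all included an allele with 0 reads in a library. Ccdc28b was at 63.5 and 37.3 on C57 and at 0 and 9.68 on NOD after IL-4, and at 9.71 and 9.65 against 40.8 and 30.3 in the basal libraries. Morrbid, a long noncoding RNA, was at 76.5 and 13.5 on C57 and at 0 on NOD after IL-4, from 6 reads.

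After IL-4, limma on all 29 strain libraries called 1568 of 11907 genes (13.2%) between C57 and NOD, 920 (7.73%) higher in C57 and 648 (5.44%) in NOD. With libraries rescaled by median ratios, which moved the median of all genes from 0.13 to 0.00 on the log2 scale, the split was 706 and 821. Of the 2767 members, 2705 were tested in the parents and 450 (16.6%) were called, 313 higher in C57 and 137 in NOD, or 245 and 185 after rescaling. Of the 62 others, 47 were not listed in the strain table.

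F1 and parental values come from separately normalized tables, so their ratios were set side by side with no test, with a margin of 1 log2 unit as the limit for a like ratio. Of the 2705 members, 1974 (73.0%) had an F1 ratio within 1 log2 unit of the parental one, or 66.2% without IL-4 library 2. Of the 1937 with at least 20 reads in each IL-4 library, 1538 (79.4%) did. Among the 316 of these that were called in the parents, however, 91 were within the margin. Outside it, 212 had an F1 difference of smaller size, whatever its sign, and 13 did not. Genes within the margin can also have a smaller F1 difference, such as Igf1 with 0.52 beside 1.45. For these 316 genes the median size of the log2 difference was 1.40 in the parents and 0.34 between the F1 alleles, and 204 had the same sign in both. A line through the origin had a slope of 0.42 for F1 on parental difference. Of the 69 members with equal reads in all F1 libraries, 5 were called in the parents. Outside the margin with a smaller F1 difference were 4, and the part of such reads in other genes was not tested.

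**Figure D5:**
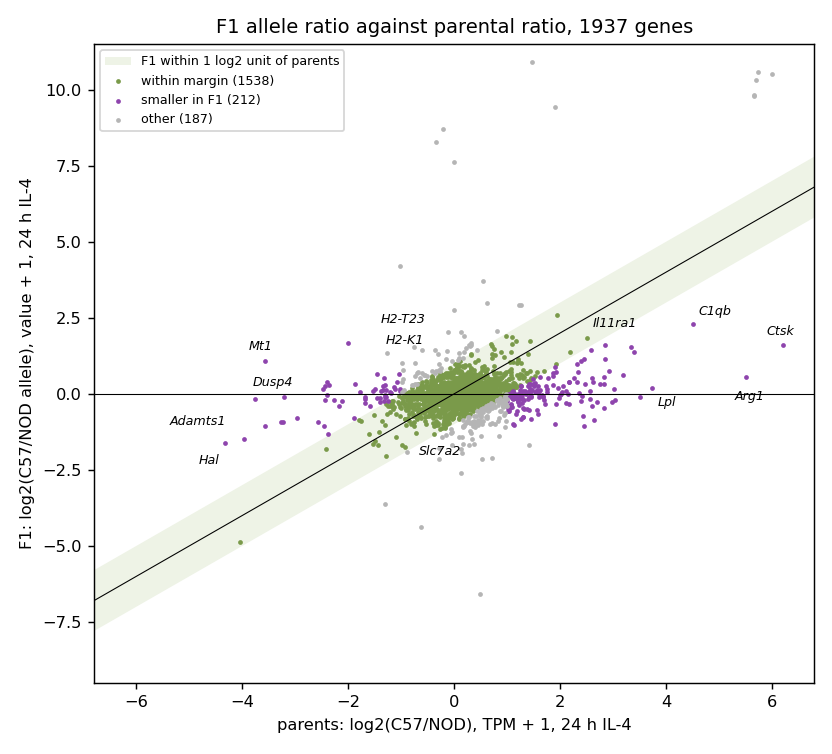
Log2 ratio of C57 over NOD in the parents (x axis, TPM with 1 added) and between the F1 alleles (y axis, values with 1 added) after 24 hours of IL-4, for 1937 members with at least 20 reads in each IL-4 library. The band marks F1 ratios within 1 log2 unit of the parental ratio (green points, 1538). Purple marks genes outside it with a parental difference over 2-fold and an F1 difference of smaller size, whatever its sign (212). Grey marks the rest (187). Arg1 and Lpl lie near 0 on the F1 axis, Ctsk, C1qb, Hal and Adamts1 between 0 and the line of equality, and Il11ra1 near the line.

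Genes with a large parental difference are given as examples chosen after their values were seen. Lpl, lipoprotein lipase, was at 647 ± 39.8 TPM in C57 and 47.9 ± 5.72 TPM in NOD, while its C57 read shares in the F1 were 53.4% of 4407 reads and 55.7% of 5582 reads, with intervals above 50%. Dusp4, a phosphatase of MAP kinases, was at 61.0 ± 3.17 and 572 ± 16.6 TPM in the parents and had 53.6% and 45.4% in the F1. Dio2, which activates thyroid hormone, was at 11.2 ± 0.80 and 165 ± 9.21 TPM and had log2 ratios of -0.30 and -0.04 in the F1 libraries. Rnase2a, with 14.7 ± 0.99 and 0.38 ± 0.12 TPM, had 38 and 80 reads on C57 and 39 and 82 on NOD. Mt1, a metallothionein, was higher in NOD in the parents, at 334 ± 37.4 and 3998 ± 268 TPM, and higher on the C57 allele in the F1, with 53 and 44 reads against 28 and 17.

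Others kept part or all of the parental difference between the alleles. Gnpda1, a glucosamine-6-phosphate deaminase, had a log2 ratio of 1.37 beside a parental 3.40, and Dhrs9, a short-chain dehydrogenase, 1.55 beside 3.34. Apoe, the apolipoprotein of macrophage cholesterol export, had C57 read shares of 73.1% in both IL-4 libraries, a log2 ratio of 1.37 (limma adjusted p = 0.0527) beside a parental 2.19. Cd200r4, an activating receptor of the CD200R family, had 2.58 beside 1.94, and Adi1, an enzyme of methionine salvage, had -1.32 beside -1.62. By contrast, Csf1r, the receptor for M-CSF, and Mfge8, a bridge to dying cells, kept little of the parental difference. Their F1 log2 ratios were 0.03 and 0.04 beside parental differences of 1.44 and 2.36.

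The allele calls were also set beside the parental calls. Of the 19 calls with C57 higher, 19 were tested in the parents, and 12 were called higher in C57 and 1, Rpl21, in NOD. The 12 include Rpl34 and Rpl34-ps1, which share their reads. They also include Rpl30 and Gm12191, each with 8 and 23 reads on C57 in the IL-4 libraries. The 12 are therefore not 12 separate genes. Of the 16 with NOD higher, 14 were tested, and 5 were called higher in NOD and 1, Batf3, in C57. Under the read rule, 36 of the 68 tested genes with C57 higher were called in the same direction in the parents and 3 in the other, and with NOD higher 16 of 50 and 1. Of all 2705 members tested in the parents, 313 were called higher in C57 and 137 in NOD, or 16.6% in either direction. The count for the same direction is the background for each set above.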

How the data were processed

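RNA-seq values for F1 alleles came from the TPM table that the authors deposited. The study's methods describe F1 processing for another cross of C57: reads were mapped with STAR to both parental genomes, transcript counts (HOMER, mm10) were scaled by the ratio of variant-overlapping reads and a factor of 10 and given to the alleles, and transcripts without reads on an allele were removed, although the table used here holds such genes. Strain TPM came from the authors' separate table, whose DESeq2 comparison columns were not used. That multiples in the F1 columns are reads is inferred from the values and not certain. Log2(value + 1) of C57 minus NOD within each library was fitted for the 2767 members in limma 3.58.1 (R 4.3.3), with 1 mean per condition over 4 libraries and a variance trend. Strains were fitted in limma on log2(TPM + 1), for genes of at least 1 TPM in at least 2 of 29 libraries. P-values were adjusted by Benjamini-Hochberg over all genes of a fit. Both fits were run on simulated data, in which F1 reads were split at random around a set ratio. Neither equal reads on both alleles nor alleles at 0 were built into that simulation, so it cannot judge calls on such genes. Alleles of a library are paired by construction, and their deviations correlated at r = 0.42 across members.

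Members and gene lists were chosen with earlier results of these data known. By rule, named genes were called members with the largest ratios in each direction (10 with reads on both alleles, 5 at 0 on an allele), called members of the lists, 7 IL-4 genes, 3 changes of ratio in each direction and the 5 highest members. Other genes are examples chosen after their values were seen, and some items are not reported here. Alternatives varied the pseudocount, filter, prior, scaling, block, libraries and use of reads.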

Additional observations from a re-analysis of the deposited data

Results flagged for a closer look

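Among the genes named by rule, 5 had an F1 allele ratio and a parental difference of opposite signs in every library of both comparisons. This difference between comparisons was not tested. The count does not cover the other members, and Mt1, described above, also differed in direction. The F1 log2 ratio of C57 over NOD exceeded the parental one by 8.92 for Rplp0, which had 0 reads on the NOD allele, by 5.22 for Rpl21 and by 4.16 for Ccdc28b. The F1 ratio minus the parental one was -7.34 for Batf3 and -6.77 for 2810004N23Rik (both with 0 reads on the C57 allele after IL-4). For Klf4 it was -1.41, but its alleles had equal reads, 79 each, in IL-4 library 2, so that only IL-4 library 1 shows the opposite direction. Ccdc28b also differed in opposite directions after IL-4 and in the basal libraries, by 5.69 on the log2 scale, which missed the test (limma adjusted p = 0.820) and rests on 11 reads after IL-4.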

How the results depend on the processing

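The 35 allele calls after IL-4 moved to 17 with members from a mean of 5, 14 with no filter, 7 over genes with reads on both alleles throughout, 15 with a robust prior and 0 with the IL-4 libraries only. Leaving out 1 library gave 0 to 4. Alternatives chosen after seeing the data gave 20 calls from reads with 0.5 added, 3 by limma-voom on reads and 123 by the read rule. Every called gene kept its sign in each fit that held it. The replicate number shared by IL-4 and basal libraries is only a number (r = 0.03 across genes), and with it as a replicate block 0 genes were called, against 50 with the alleles of a library left unpaired. The 450 parental calls among members were 450 with the replicate block, 292 with a pseudocount of 5, and 439 to 468 without 1 library. The share of members within 1 log2 unit of the parental ratio, 73.0%, was 50.8% with a margin of 0.58, 29.6% among parental calls, 80.3% with a pseudocount of 5, 76.9% with reads on both alleles, 79.4% with at least 20 reads a library, and 66.2% to 72.6% without 1 IL-4 library, where IL-4 library 2 gave the lower value. The cause of these shifts was not tested. The count of changed ratios between IL-4 and basal stayed at 0 in each fit. Depth limits the ratios, since 1971 of the 2767 members had at least 20 reads in each IL-4 library.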
